A study of Mus musculus with 1646 samples.

Results

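The 35 genes described here encode the contractile apparatus of smooth muscle and the cytoskeleton to which it is anchored, out of 46517 genes counted in single cells of the mouse colon. They were chosen by name, as actins, myosin, tropomyosins, calponins and other actin-binding proteins, intermediate filament proteins, adhesion and LIM-domain proteins, the kinase and phosphatase that set myosin phosphorylation, and the transcription factors that control them. Each matched 1 Ensembl identifier of GENCODE vM21, the annotation of the genome build GRCm38. All 35 were among the 21739 genes that passed the filter on low counts, which a gene can pass through mural cells alone.

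The cells were sorted as CD31-negative (non-endothelial) single cells positive for a reporter or for antibody staining of PDGFRα or PDGFRβ. They came from male mice aged 10 to 20 weeks on a C57Bl6/J background. In each of 4 reporter lines a fluorescent protein is made by cells that use the regulatory sequences of the named gene: PdgfrbGFP (46.2% of the cells, a GFP transgene), Acta2GFP (34.4%, a GFP transgene), PdgfraGFP (13.8%, a nuclear GFP placed in the *Pdgfra* gene) and Cspg4dsRED (5.53%, 91 cells, a red fluorescent transgene). No group was treated. The labels name no mouse, so a line is the unit of replication here. Strain, plate, the reporter used for sorting and digestion all vary from line to line. In Acta2GFP mice the sort aimed at cells positive for *Acta2*, which is a member of the list. The part of this selection in the results was not tested. The tissue of Acta2GFP mice was digested with elastase beside the other enzymes, and the study removed cells in which neither *Pdgfra* nor *Pdgfrb* was counted.

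The labels assign every cell to 1 of 8 clusters, which the study named. Mural cells, the contractile cells of vessels and muscle bundles, were cluster 3 (vascular smooth muscle cells, SMC, 8.57% of all cells), cluster 4 (pericytes, 8.63%) and cluster 8 (interstitial SMC, 3.4% or 56 cells, of which 52 came from Acta2GFP mice). Fibroblasts were clusters 1 (29.3%), 5 (25.8%) and 7 (13.5%), set by the study in the middle and base of the mucosa, cluster 2 at the crypt apex (7.96%) and cluster 6 (2.73% or 45 cells), placed between the middle and the apex. A level is the mean over cells of counts scaled to 500000 counts on genes per cell, first within a line and then over the lines with at least 10 cells in the cluster. The SD is between lines, and cluster 8 has 1 line and hence no SD.

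Smooth muscle shortens when myosin heads on thick filaments pull on thin filaments of actin and tropomyosin. Calcium-bound calmodulin switches on myosin light chain kinase, which phosphorylates the regulatory light chain, and a myosin phosphatase with its own targeting and inhibitory subunits reverses this. The thin filaments are tied to dense bodies and to the cell membrane by alpha-actinin, filamin, vinculin and LIM-domain proteins, and desmin and synemin filaments link these sites across the cell. Serum response factor (SRF) drives many of these genes by binding the CArG box in DNA together with its partner myocardin. In the gut the visceral muscle layers use gamma-enteric actin, whereas arterial muscle relies on alpha actin, and pericytes, which wrap capillaries, hold a more modest contractile apparatus.

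The promoter sequences of the members bear on that last step, and the ones with a CArG box are shown because several of these genes differed together between cell types. RefSeq promoters (GRCm38.p6) were matched by symbol for 31 of the 35 members, each window running from 250 bases before to 50 after a transcription start. *Tagln*, *Myh11*, *Actg2* and *Myocd* had no window in the table. The box searched for was the strict CArG pattern, which begins with CC, continues with 6 bases that are each A or T and ends with GG. Its reverse complement has the same pattern, so 1 search covers both strands. Of the 31 members, 7 had at least 1 box (22.6%), against 488 of 27025 genes in the table (1.81%). A match is a run of letters and not an observed binding site, and the absence of a match says only that these letters are not in the window.

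The windows of 4 members that differ in where they were expressed are given whole, 5′ to 3′ on the strand of the gene, with the CArG boxes in capitals. *Asb2* and *Fhl1* each had another window, which held no box and is not shown. *Myl9* (regulatory light chain) was high in all mural cells, *Asb2* was counted almost solely in the SMC clusters, *Fhl1* had its highest cluster means in interstitial SMC and cluster 6, and *Srf* encodes the factor that binds the box.
Myl9 promoter, chr2:156775214-156775513, plus strand: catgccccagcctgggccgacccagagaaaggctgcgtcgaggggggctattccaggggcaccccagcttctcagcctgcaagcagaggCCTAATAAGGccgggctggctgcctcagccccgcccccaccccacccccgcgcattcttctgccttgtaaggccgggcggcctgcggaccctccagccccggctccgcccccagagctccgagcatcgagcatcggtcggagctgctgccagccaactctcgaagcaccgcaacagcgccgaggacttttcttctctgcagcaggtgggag
Asb2 promoter, chr12:103355952-103356251, minus strand: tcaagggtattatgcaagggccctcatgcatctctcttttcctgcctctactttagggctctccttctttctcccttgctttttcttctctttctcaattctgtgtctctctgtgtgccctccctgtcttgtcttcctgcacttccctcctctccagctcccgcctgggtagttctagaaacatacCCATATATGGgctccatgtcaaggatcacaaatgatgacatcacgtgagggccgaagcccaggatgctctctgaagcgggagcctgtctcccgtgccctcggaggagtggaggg
Fhl1 promoter, chrX:56779433-56779732, plus strand: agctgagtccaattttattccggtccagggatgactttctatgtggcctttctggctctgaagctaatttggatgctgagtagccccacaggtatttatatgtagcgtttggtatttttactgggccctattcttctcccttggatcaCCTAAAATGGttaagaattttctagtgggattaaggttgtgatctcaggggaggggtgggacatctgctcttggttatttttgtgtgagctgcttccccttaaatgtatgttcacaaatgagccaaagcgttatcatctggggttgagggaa
Srf promoter, chr17:46556113-46556412, minus strand: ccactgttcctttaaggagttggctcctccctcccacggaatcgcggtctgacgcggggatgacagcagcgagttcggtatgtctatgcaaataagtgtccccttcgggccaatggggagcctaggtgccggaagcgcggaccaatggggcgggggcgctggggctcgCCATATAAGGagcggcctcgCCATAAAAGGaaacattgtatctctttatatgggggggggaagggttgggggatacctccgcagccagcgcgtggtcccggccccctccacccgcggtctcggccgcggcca
The box began 64 bases before the start in *Asb2* and farther upstream in *Myl9* and *Fhl1*. *Srf* held 2 boxes, which began 82 and 62 bases before its start. The other members with a box were *Cnn2* (CCTTATAAGG, 56 bases before the start), *Myl6* (CCTTATATGG, 50 before) and *Vcl* (CCTTATAAGG, near the upstream end of its window). *Cnn2* and *Vcl* carried the same 10 bases. The log2 ratio of levels plus 1, vascular SMC to pericytes, was 0.09 in Cspg4dsRED and 0.39 in PdgfrbGFP for *Cnn2*. For *Vcl* it was -0.92 and -0.11. Neither gene was called in that comparison, and the part of the box in these values was not tested.

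Counts on genes ran from 47598 to 1494292 per cell with a median of 248628. The fit reported here rests on sums of 10 or more cells that held 2202988 to 85478239 counts. Shares and percentiles over single cells also use the cells left out of the sums. The labels were checked against markers. Pericytes had the highest levels of *Rgs5* (3262), *Kcnj8* (489), *Abcc9* (463.8) and *Notch3* (706), and interstitial SMC the highest of *Hhip* (1339), *Rgs10* (470.4) and *Actg2*. The 6 fibroblast markers summed to 4250 to 9951 in the fibroblast clusters, 1059 and 2303 in pericytes, 1936 in interstitial SMC and 295.6 to 861.8 in vascular SMC, and one of them, *Dcn*, was lower in cluster 2 (273.3) than in pericytes (694). Of 6 vascular SMC markers only *Mcam* (539) was highest in that class. *Notch3* was highest in pericytes, and the members *Acta2*, *Myh11*, *Tagln* and *Cnn1* in interstitial SMC, where the 6 summed to 9528 against 5836 to 9106 in vascular SMC. *Des*, on the interstitial list, was lower there (200.5) than in vascular SMC (1159). The summed level of 5 endothelial markers was 4.46 to 81.2 in the lines and clusters (*Pecam1* at most 12.9, *Tie1* 39.1 in pericytes), that of 4 immune markers at most 13.1, that of 4 epithelial markers at most 34.5 and that of 4 glial and neuronal markers at most 4.46. Of 2 markers of interstitial cells of Cajal, *Kit* was at most 8.85 and *Ano1* was at 294.96 in pericytes, 283.6 in vascular SMC, 170.8 in cluster 2 and 27.3 or less elsewhere, and its part in the results was not tested. Since the authors defined the clusters on these same counts, the tests below compare classes that are not independent of the genes tested.

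The 35 genes took a median of 5.59% of all counts in interstitial SMC and 4.17% in vascular SMC. The median was 1.67% in pericytes, 1.19% in cluster 6, 0.904% in cluster 2 and 0.57% to 0.731% in clusters 1, 5 and 7. From the 10th to the 90th percentile of cells the share was 2.79% to 6.32% in vascular SMC and 0.975% to 3.32% in pericytes, so the ranges of these classes met. Within cluster 6 the median share was 1.78% in the 10 Acta2GFP cells and 1.04% in the 26 PdgfraGFP cells. The heat map of levels shows which genes made up these shares.

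**Figure D1:**
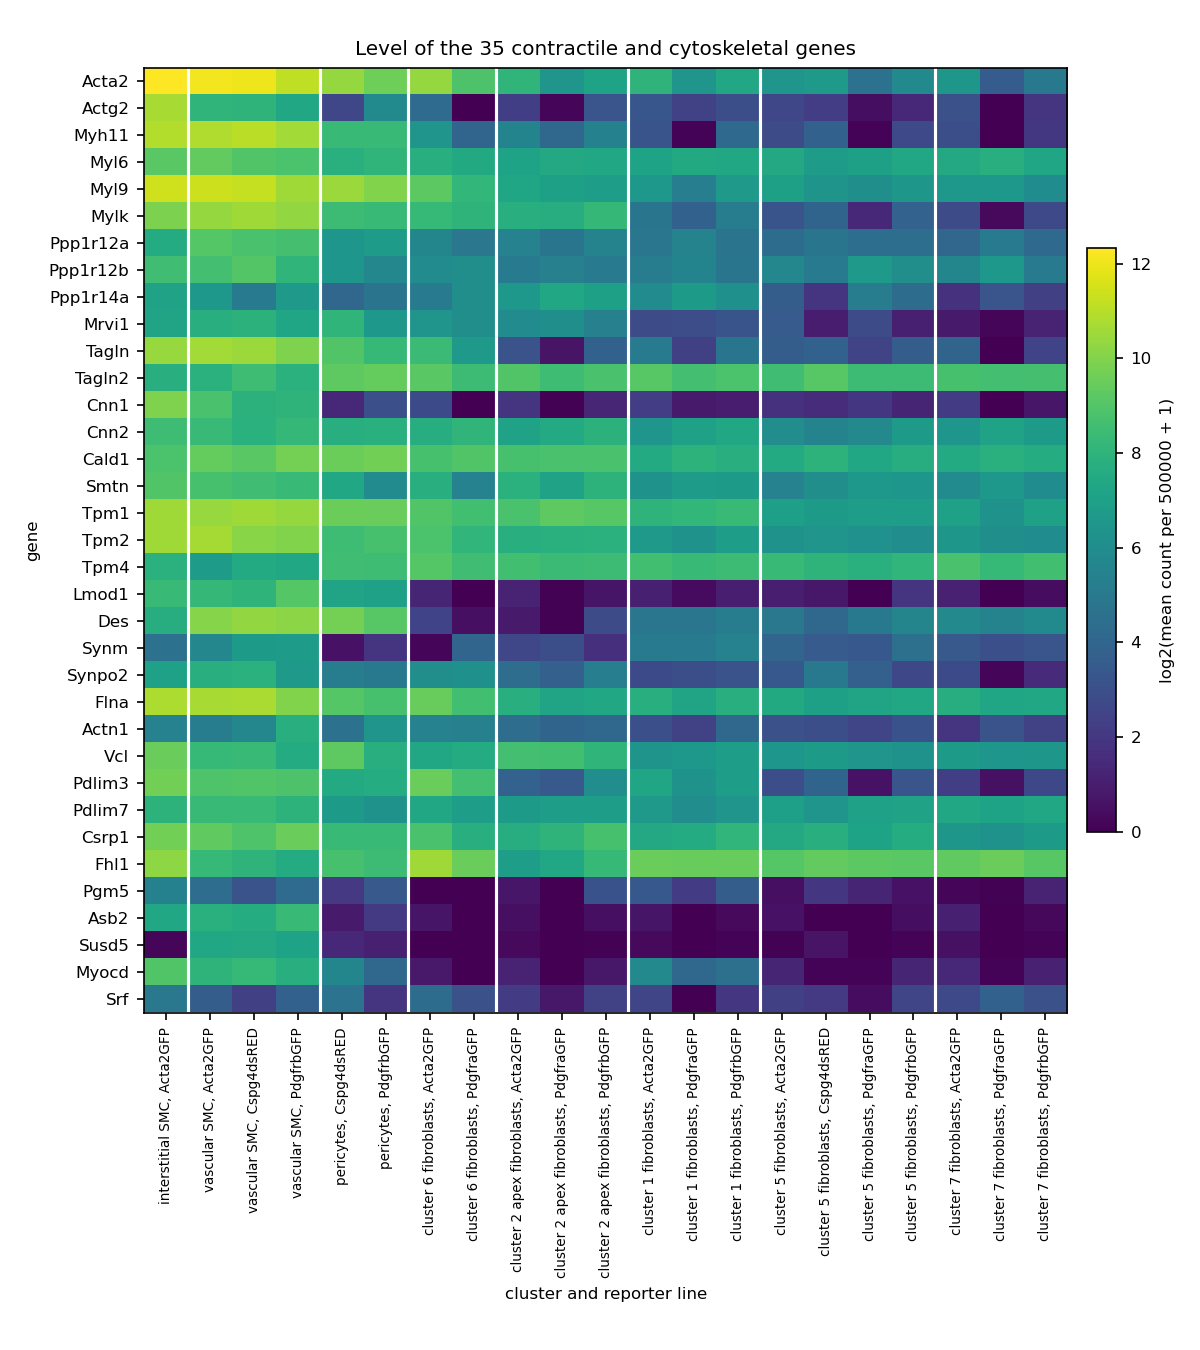
Level of each of the 35 genes (rows, grouped by role) in each cluster and reporter line with at least 10 cells (columns), as log2 of the mean count per 500000 plus 1. Vascular and interstitial SMC are high for most rows, pericytes hold a subset, and cluster 6 stands above the other fibroblasts for a smaller subset that includes *Acta2*, *Myl9* and *Pdlim3*.

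Ranked per kilobase of exon, the regulatory light chain *Myl9* and the alpha actin *Acta2* led the list in all 3 mural classes. In vascular SMC *Myl9* stood at 1889 and *Acta2* at 1634 counts per 500000 and kilobase, followed by *Tagln* (661), which encodes the actin-binding protein transgelin, and *Tpm2* (433.4), a tropomyosin. In interstitial SMC *Myl9* (2384) and *Acta2* (2329) were followed by *Actg2* (1071), the enteric gamma actin, which ranked 11th in vascular SMC with 146.4. Pericytes had *Myl9* at 1040 and *Acta2* at 476.8, and *Tagln2*, a transgelin of many non-muscle cells, came next with 310.9. In cluster 6 the order began with *Acta2* (413.7), *Myl9* (375.7) and the LIM protein *Fhl1* (304.6).

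*Acta2* (chr19:34241090-34255590, minus strand) had a level of 4392 in Acta2GFP, 4092 in Cspg4dsRED and 2280 in PdgfrbGFP vascular SMC, a mean of 3588 ± 1142 (SD, n = 3). Interstitial SMC had 5114, and pericytes 1323 in Cspg4dsRED and 771 in PdgfrbGFP. The lowest vascular SMC line was above the highest pericyte line, and interstitial SMC lay above all. Cluster 6 had 1344 in Acta2GFP and 473.5 in PdgfraGFP, which overlapped the pericyte lines. The remaining fibroblast levels ran from 11 (cluster 7, PdgfraGFP) to 262.3 (cluster 2, Acta2GFP).

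The second muscle actin, *Actg2* (chr6:83512905-83536265, minus strand), was highest in interstitial SMC. Its level was 1667 in interstitial SMC, against 268.4 in Acta2GFP, 256.1 in Cspg4dsRED and 159.2 in PdgfrbGFP vascular SMC. In pericytes it was 5.08 in Cspg4dsRED and 55.7 in PdgfrbGFP, and in the fibroblast lines it was 18.9 or less. The heavy chain of smooth muscle myosin, *Myh11* (chr16:14194535-14291372, minus strand), did not separate the SMC classes: it stood at 1891 in interstitial SMC and at 1861, 2144 and 1563 in the Acta2GFP, Cspg4dsRED and PdgfrbGFP vascular SMC. In pericytes it was 310.7 and 324.6, and cluster 6 had 86.2 in Acta2GFP and 15.2 in PdgfraGFP.

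*Myl9* (chr2:156775420-156781658, plus strand) was at 2770 in interstitial SMC, at 2665, 2409 and 1511 in the vascular SMC lines, at 1410 and 1007 in the pericyte lines and at 587 and 285.8 in cluster 6. Of the motor genes it was the one in which pericytes came nearest to vascular SMC. The log2 ratio of levels plus 1, vascular SMC to pericytes, was 0.77 within Cspg4dsRED and 0.59 within PdgfrbGFP. Among cells below 200000 counts the levels were 3080 in vascular SMC and 1370 in pericytes. The light chain kinase *Mylk* (chr16:34745210-35002420, plus strand) was at 1346, 1503 and 1282 in vascular SMC, 952 in interstitial SMC, 343.8 and 321.9 in pericytes, and 304.3 and 254.02 in cluster 6. Cluster 2 fibroblasts held *Mylk* at 203.5 to 290.5, whereas clusters 1, 5 and 7 were at 35.6 or less.

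**Figure D2:**
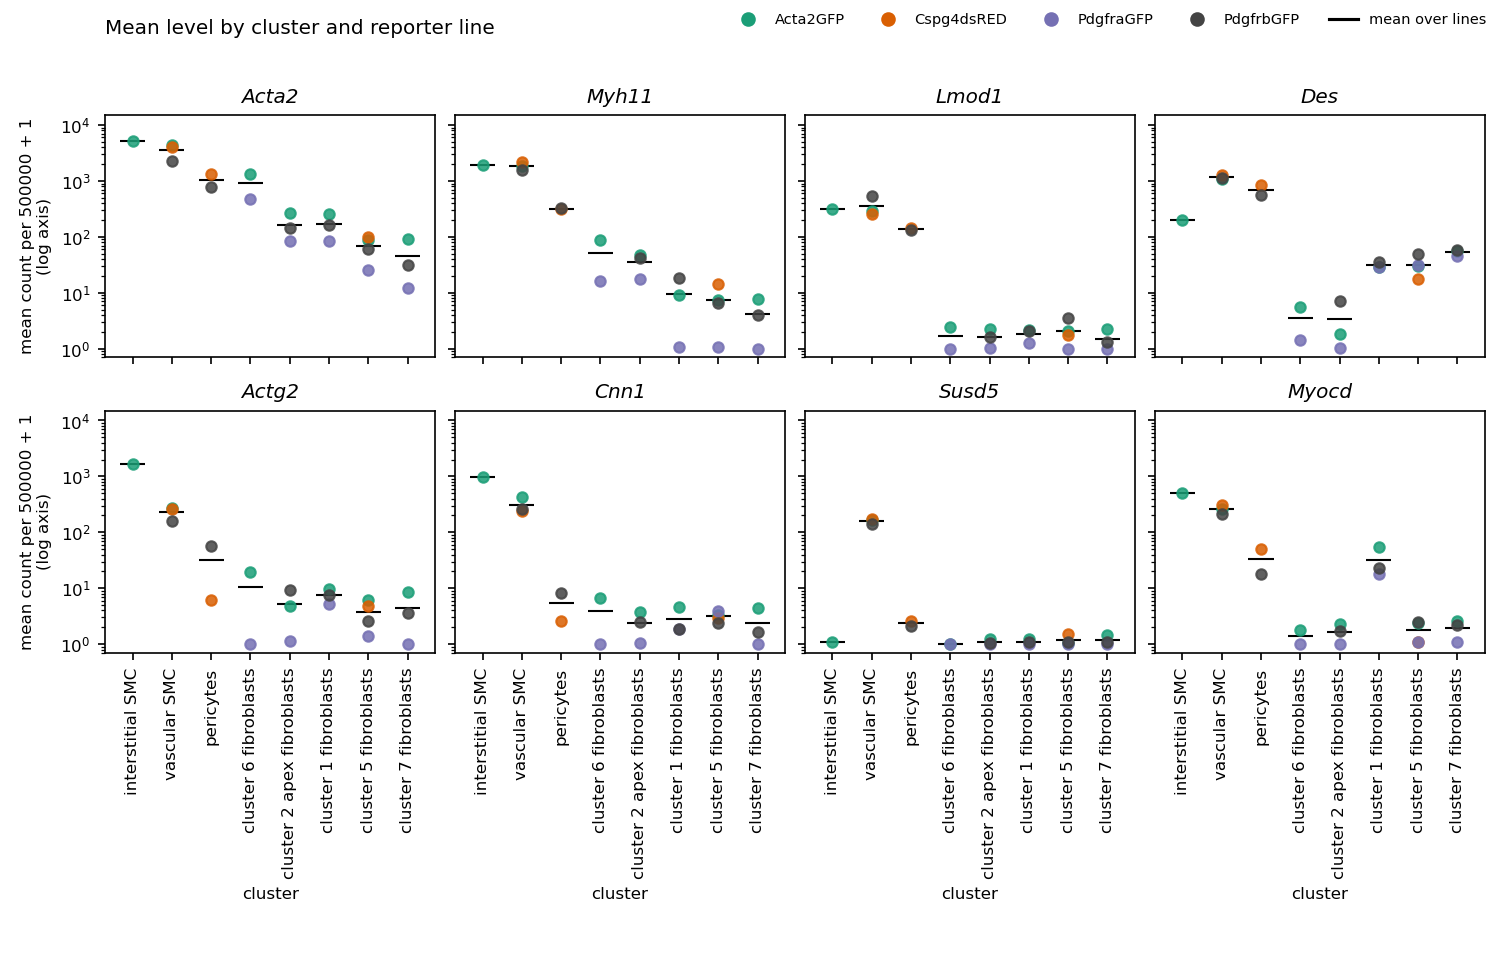
Mean count per 500000 plus 1 (log axis) of *Acta2*, *Myh11*, *Lmod1*, *Des*, *Actg2*, *Cnn1*, *Susd5* and *Myocd* by cluster, with 1 point for each reporter line with at least 10 cells, coloured by line, and a bar at the mean over lines. *Actg2* and *Cnn1* are highest in interstitial SMC, *Des* and *Susd5* in vascular SMC, and *Myh11* is alike in both.

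Several of the most abundant members moved with the depth of a cell, which bears on their absolute levels. No gene of 39619 had more than 1.96 counts per base of exon in any cell, and the highest counts per base among the members were 1.57 for *Myl9* (1828 counts), 1.15 for *Acta2* (2523 counts), 1.04 for *Actg2* and 1.02 for *Csrp1*. The median depth of vascular SMC was 188945 counts in Acta2GFP, 150636 in Cspg4dsRED and 589956 in PdgfrbGFP. Cells of a line also share plates, and line and depth mix in the pooled values that follow. Across all vascular SMC the rank correlation of a cell's level with its total counts was -0.892 for *Acta2*, -0.851 for *Myl9* and -0.705 for *Tagln*. It was -0.653 for *Myl6*, -0.519 for *Tpm2* and -0.216 for *Myh11*. Vascular SMC below 200000 counts (45 cells) had an *Acta2* level of 5284, and the 96 cells with more counts had 2076. For *Myl9* the levels were 3075 and 1407.

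Median depth differed between the classes, from 118252 counts in interstitial SMC and 209805 in pericytes to 359677 in vascular SMC. Among cells below 200000 counts, *Acta2* was at 5800 in 41 interstitial SMC, 5280 in 45 vascular SMC, 1310 in 67 pericytes and 1010 in 19 cells of cluster 6. *Myl9* was at 3080 in both SMC classes in this subset. Below 200000 counts the SMC classes thus lay closer together in both genes than over all cells, while pericytes stayed below them. Within Acta2GFP over all cells the log2 ratio of interstitial to vascular SMC was 0.22 for *Acta2* and 0.06 for *Myl9*. The parts of line and depth were not separated. The part of a ceiling on counts per base in these values was not tested.

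**Figure D3:**
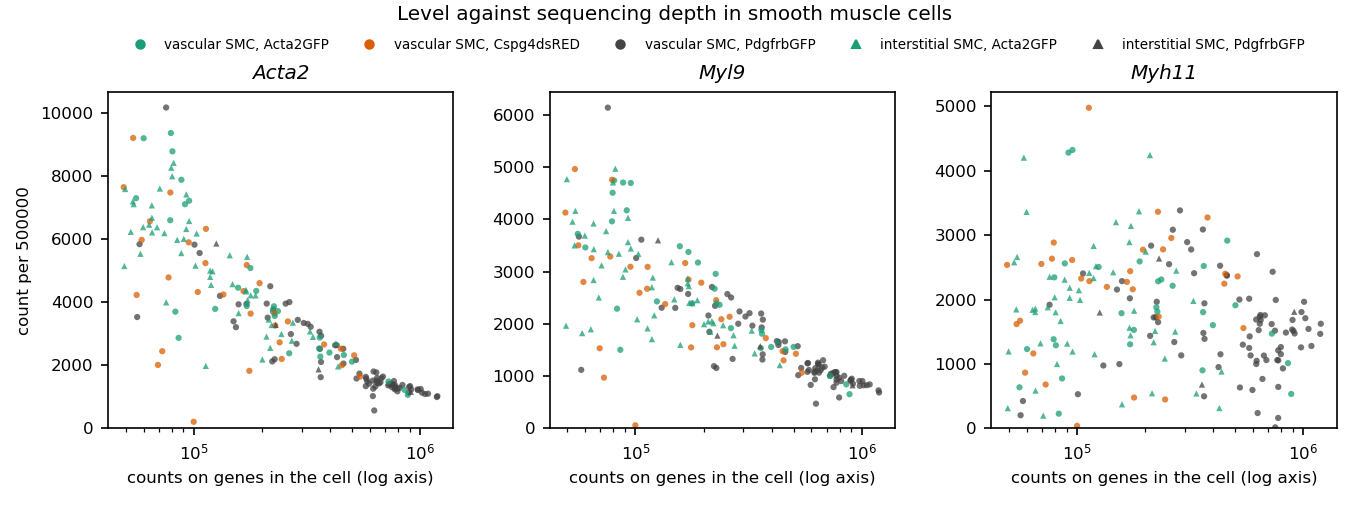
Count per 500000 of *Acta2*, *Myl9* and *Myh11* (linear axis) against the counts on genes of the cell (log axis) in SMC, with 1 point per cell, circles for vascular and triangles for interstitial SMC, coloured by line. The levels of *Acta2* and *Myl9* fall towards deeper cells (rank correlation -0.892 and -0.851 in vascular SMC), and that of *Myh11* does so less (-0.216).

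The comparison of vascular SMC with pericytes asks how the contractile program differs along the vessel wall. Of the 35 members, 4 were higher in vascular SMC in the quasi-likelihood test of edgeR, with p-values adjusted after Benjamini and Hochberg over 21739 genes, and none was lower, where 0.198% of all genes were called higher and 0.621% lower. They were the tropomyosin *Tpm2*, the Z-disc and actin-associated LIM protein *Pdlim7*, the myosin phosphatase targeting subunit *Ppp1r12b*, and *Susd5*. The median log2 fold change of the members was 1.63, against 0.00 over all genes tested, and 20 of the 35 had an unadjusted p below 0.05 (12.7% of all genes). A level in each of the 3 vascular SMC sums above both pericyte sums was found for 26 members, where 8.73% of all genes had this order. The others were *Tagln2*, *Cald1*, *Tpm4*, *Vcl*, *Actn1*, *Fhl1*, *Srf*, *Mrvi1* and *Pgm5*.

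*Tpm2* was at 1636 in Acta2GFP, 1126 in Cspg4dsRED and 1020 in PdgfrbGFP vascular SMC, and at 356.3 and 425.8 in Cspg4dsRED and PdgfrbGFP pericytes. Its log2 fold change was 1.5 ± 0.31 (SE), with an edgeR adjusted p of 0.0251. *Pdlim7* was at 317.3, 323.02 and 251.4 in vascular SMC and at 105.7 and 76.8 in pericytes (log2 fold change 1.67 ± 0.33, edgeR adjusted p = 0.0172). For both genes each vascular SMC line lay above both pericyte lines.

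*Ppp1r12b* was at 402.98, 512.8 and 263.9 in vascular SMC and at 87.2 and 51.8 in pericytes (log2 fold change 2.48 ± 0.53, edgeR adjusted p = 0.0282). *Susd5* (chr9:114057140-114098728, plus strand), which encodes a membrane protein with a sushi domain, was at 164.01, 172.1 and 140 in vascular SMC and at 1.60 and 1.12 in pericytes. Its log2 fold change was 7.49 ± 1.69 with an edgeR adjusted p of 0.0402, the largest difference of the 4. In no interstitial SMC or fibroblast sum did *Susd5* reach the pericyte level.

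Several classical SMC genes had differences that did not pass the test in the fit reported here. More members passed under other settings, 12 with DESeq2, 13 with plates as samples and 16 with limma (5.59%, 2.7% and 2.95% of all genes). *Cnn1* (calponin, which binds actin and holds back the myosin motor) was at 433.95, 236.9 and 258.5 in vascular SMC and at 1.62 and 7.11 in pericytes. *Lmod1* (leiomodin, which nucleates actin filaments) was at 290, 256.3 and 531 against 145.5 and 131.9. *Des* (desmin) was at 1068, 1261 and 1149 against 845 and 553, also without overlap. Within the lines that hold both classes, 28 members were higher in vascular SMC in both (20.1% of all genes), and *Tagln2*, *Tpm4*, *Vcl* and *Fhl1* were lower in both (26.5% of all genes). *Tagln2* and *Tpm4* encode non-muscle relatives of transgelin and tropomyosin. *Tagln2* was at 230, 358.8 and 229.4 in vascular SMC and 607 and 687 in pericytes, and *Tpm4* at 106.7, 182.3 and 160 against 374.3 and 358.4, without passing the test.

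These calls rested on few sums. Without Acta2GFP 0 members were called (0.383% of all genes), without PdgfraGFP 10 (0.974%) and with the line as a replicate block 7 (0.994%). Without Cspg4dsRED or PdgfrbGFP, which leaves 1 pericyte sum, calls were lost as well. The block added *Acta2* (log2 fold change 1.58, edgeR adjusted p = 0.00385), *Asb2* (7.65, p = 0.00168) and *Flna* (1.66, p = 0.0432). Without Acta2GFP the log2 fold changes of the 4 were 1.38 (*Tpm2*), 1.74 (*Pdlim7*), 2.53 (*Ppp1r12b*) and 7.53 (*Susd5*), with edgeR adjusted p of 0.134 to 0.232. With only the compared clusters in the fit *Susd5* alone of the 4 kept its call (edgeR adjusted p = 0.138, 0.199 and 0.151 for *Tpm2*, *Pdlim7* and *Ppp1r12b*). *Tpm2* and *Ppp1r12b* lost theirs with at least 3 cells per sum, *Ppp1r12b* with plates as samples and *Tpm2* with limma. Among cells below 200000 counts, *Tpm2* and *Susd5* passed and *Pdlim7* (log2 fold change 1.71) and *Ppp1r12b* (2.49) did not. In bulk sums of this kind, fewer cells with a transcript and less transcript per cell cannot be told apart, so the values over cells follow.

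**Figure D4:**
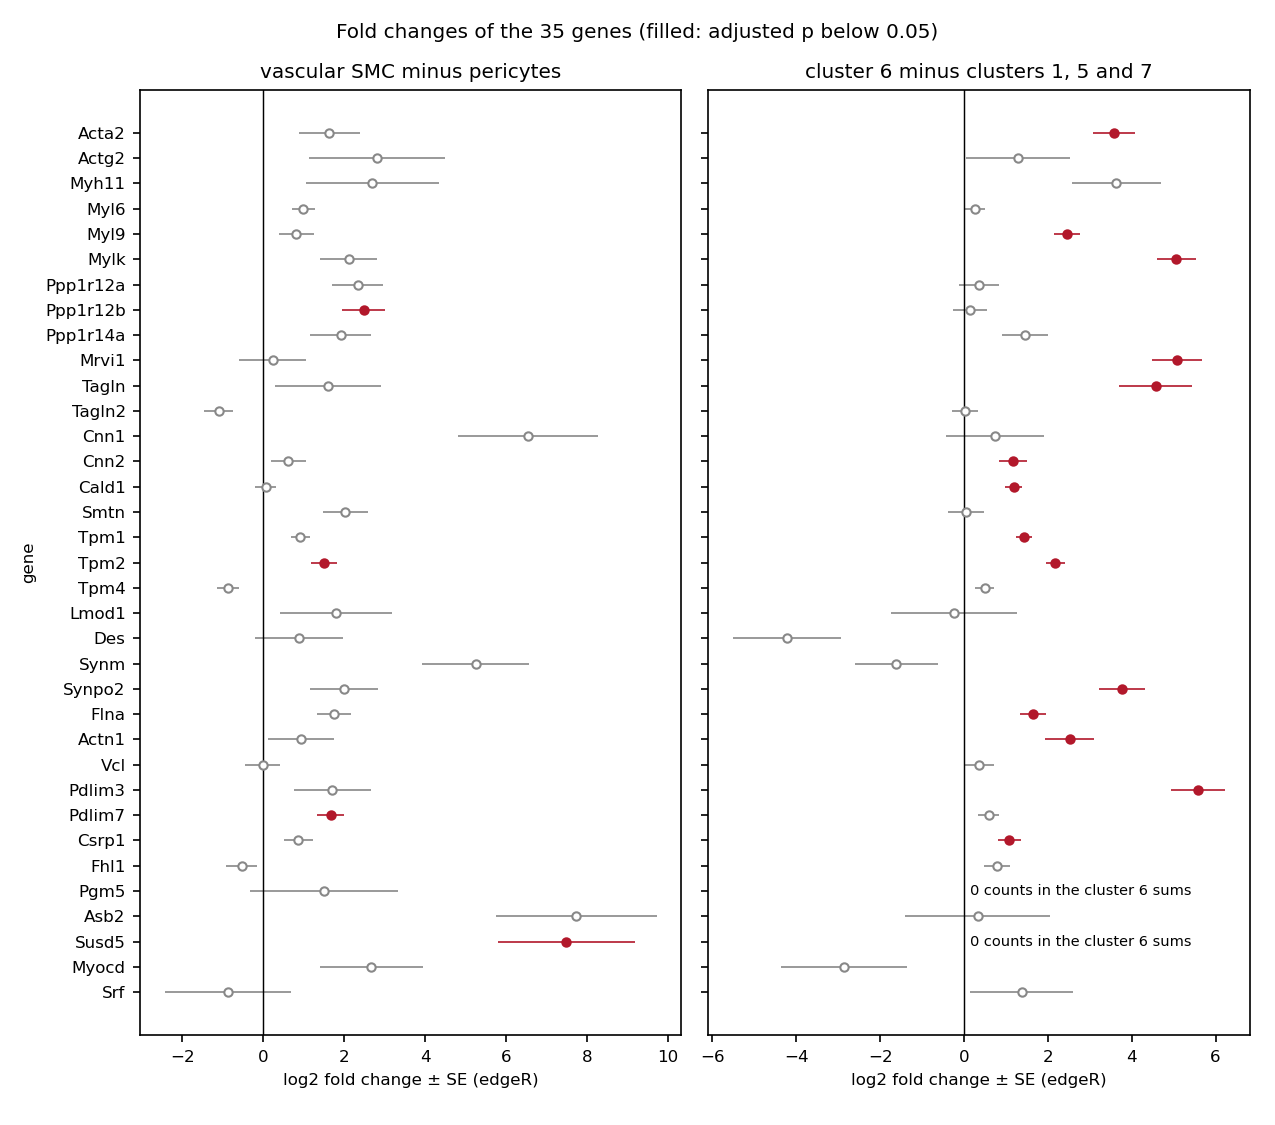
Log2 fold change (points) with its standard error (bars) of each member from the edgeR fit, for vascular SMC minus pericytes on the left and cluster 6 minus clusters 1, 5 and 7 on the right, with filled points for an adjusted p below 0.05. On the left 4 genes are filled and on the right 14, and *Pgm5* and *Susd5*, with 0 counts in the cluster 6 sums, are written in words on the right.

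Pericytes were heterogeneous for the contractile genes. Over all pericytes *Acta2* ran from 1.03 to 7567 with a 10th percentile of 44.2, a median of 329.3 and a 90th percentile of 2700. In vascular SMC the 10th percentile was 1237 and the median 2525. At or above that 10th percentile of vascular SMC lay 28.9% of pericytes for *Acta2*, 17.6% for *Myh11*, 28.2% for *Lmod1*, 45.1% for *Des* and 53.5% for *Myl9*. Pericytes were shallower than vascular SMC (median 209805 against 359677 counts) and *Myl9* and *Acta2* fell with depth in the latter, so the part of depth in these shares was not tested. In the PdgfrbGFP pericytes the rank correlation of *Acta2* with *Tagln* was 0.723, with *Myh11* 0.635 and with *Lmod1* 0.533, and with *Des* 0.23 and *Pdlim3* -0.034. These cells share 4 plates and their depth, so the values are descriptions.

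Some members were counted in only a portion of vascular SMC. After thinning each cell to 50000 counts, *Susd5* was seen in 60% of vascular SMC (95% Clopper-Pearson interval 51.4% to 68.2%), in 12.1% of pericytes and in 3.7% of 54 interstitial SMC. Without thinning these shares were 73%, 33.8% and 5.36%. In cluster 2 it was seen in 4 cells (3.05%) without thinning and in none after it. Intervals cover counting error only, since reads without molecular identifiers are not independent molecules.

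*Actg2* and *Cnn1* split vascular SMC as well. *Actg2* was above 20 counts per 500000 in 57 vascular SMC (40.4%) and in all 56 interstitial SMC. By line, 48.3% of Acta2GFP, 53.3% of Cspg4dsRED and 32.9% of PdgfrbGFP vascular SMC were above that level. For *Cnn1* the share was 63.1% of vascular SMC and 96.4% of interstitial SMC. Both genes were above 20 in 50 vascular SMC, *Actg2* alone in 7, *Cnn1* alone in 39 and neither in 45. By line, both were above 20 in 14 Acta2GFP, 11 Cspg4dsRED and 25 PdgfrbGFP cells and *Actg2* alone in 0, 5 and 2, and the rank correlation over cells was 0.175, 0.416 and 0.491. *Actg2* and *Susd5* were less aligned, with both in 35 cells, *Actg2* alone in 22, *Susd5* alone in 40 and neither in 44.

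*Asb2*, the substrate-binding subunit of a ubiquitin ligase that targets filamins, was above 20 in 69.5% of vascular SMC, in 51.8% of interstitial SMC and in 1 pericyte. Its level was 222.6, 200 and 319.2 in the vascular SMC lines and 160 in interstitial SMC, and 3.26 or less in all other sums. *Synm* (synemin) was above 20 in 37.9%, 46.7% and 42.7% of Acta2GFP, Cspg4dsRED and PdgfrbGFP vascular SMC, with a level of 51.6, 102.3 and 105.8, and at 0.5 and 2.77 in pericytes. The portion of vascular SMC with each of these genes was thus present in every line.

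**Figure D5:**
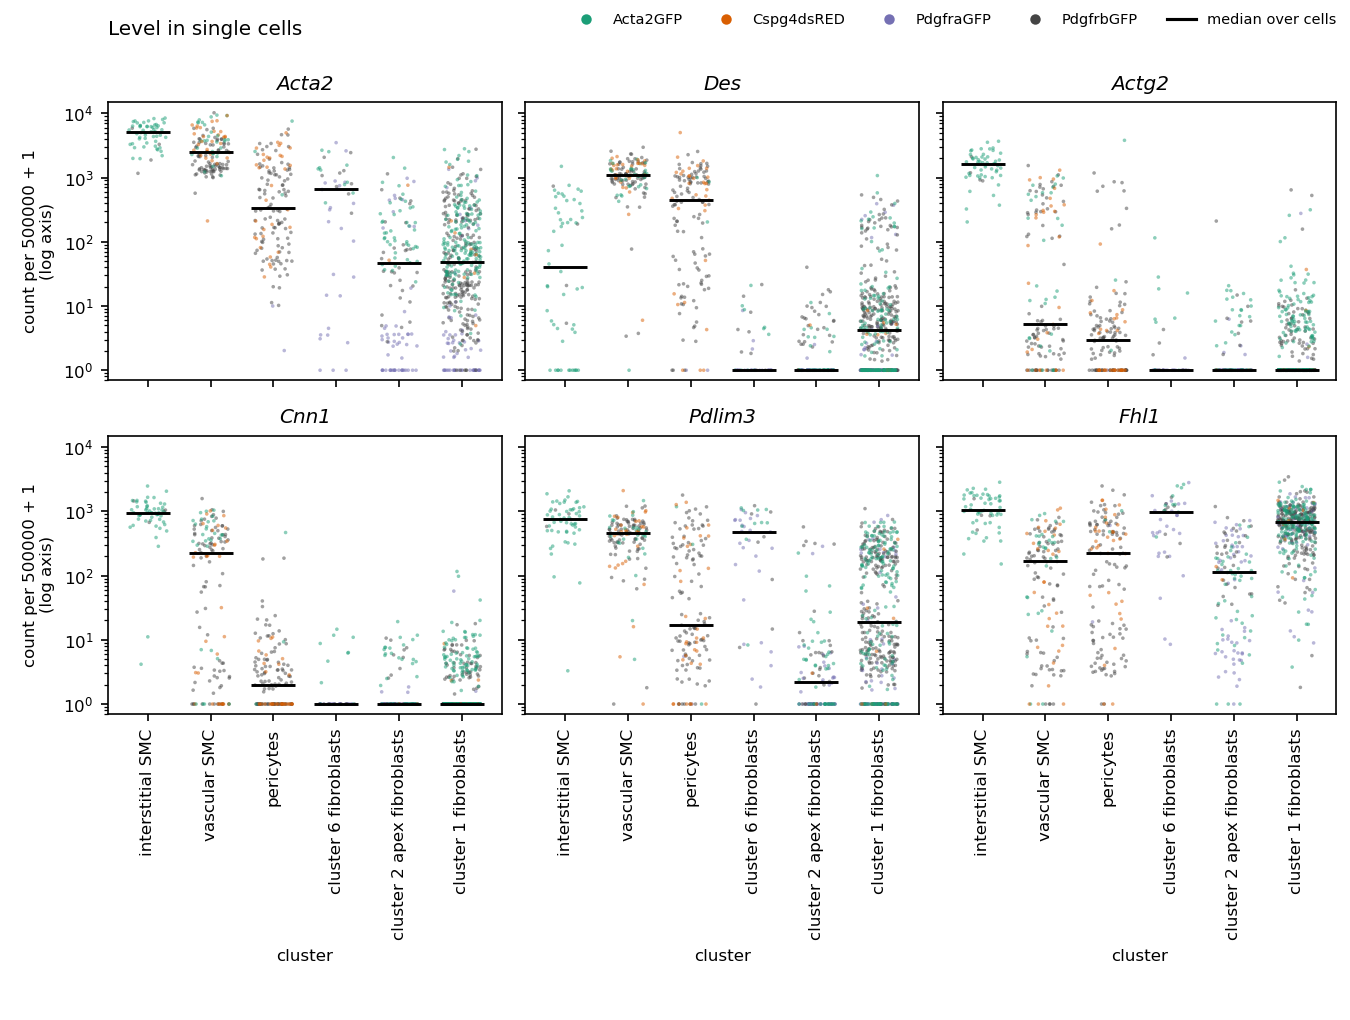
Count per 500000 plus 1 (log axis) of *Acta2*, *Des*, *Actg2*, *Cnn1*, *Pdlim3* and *Fhl1* in each cell of 6 clusters, with 1 point per cell coloured by line and a bar at the median over cells. In vascular SMC *Actg2* and *Cnn1* form an upper and a lower band, whereas all 56 interstitial SMC are above 20 for *Actg2*, and *Acta2* in pericytes spreads over more than the range of vascular SMC.

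Interstitial SMC were compared with vascular SMC to ask what sets apart the contractile genes of muscle cells outside vessels. Only *Fhl1*, which encodes a four-and-a-half LIM domain protein of muscle, passed, and no member was lower, where 0.879% of all genes were higher and 0.129% lower. Its level was 1202 in interstitial SMC and 301.2, 253.6 and 190.7 in Acta2GFP, Cspg4dsRED and PdgfrbGFP vascular SMC. The log2 fold change was 2.24 ± 0.45 with an edgeR adjusted p of 0.0122. The single interstitial sum came from Acta2GFP mice, the line digested with elastase, so digestion and class cannot be told apart between lines, and the lone sum is assumed to vary like the others. Within Acta2GFP, where both classes came from the same plates and digestion, *Fhl1* was 1202 against 301.2.

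The median log2 fold change of the members was 0.29, against -0.19 over all genes, and 3 members had an unadjusted p below 0.05, a share near the 9.51% of all genes. Within Acta2GFP 20 of the 35 were higher in interstitial SMC, as were 42.4% of all genes. *Actg2* (1667 against 268.4), *Cnn1* (985 against 433.95), *Myocd* (502 against 260.95), *Pdlim3* (824 against 486) and *Vcl* (727 against 303.6) had the higher level in interstitial SMC of that line without passing the test. *Des* (200.5 against 1068), *Synm* (23.2 against 51.6), *Ppp1r12a* (188.8 against 533) and *Mylk* (952 against 1346) had the lower one. Both filament proteins that link dense bodies were therefore on the low side of interstitial SMC in this line, and the enteric actin and calponin on the high side.

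*Susd5* was at 0.108 in interstitial SMC, from 2 counts among 7387255, against 19179 counts among 58608208 in vascular SMC. The ratio of these rates was 1209 in favour of vascular SMC, with an exact Poisson interval of 334.6 to 9981 that covers counting error only. It was not called in the edgeR fit reported here, but it was lower with the line as a replicate block (log2 fold change -10.19, edgeR adjusted p = 0.0123), with no filter on low counts, at least 3 cells per sum, plates, only the compared clusters, DESeq2 or limma, and without PdgfraGFP. *Des* was lower with only the compared clusters and with limma, and *Synm* and *Ppp1r12a* with limma. In the other direction *Actg2* was higher under both of these settings, and *Cnn1* and *Pgm5* were higher with limma. Without the Cspg4dsRED or PdgfrbGFP line *Fhl1* lost its call (log2 fold change 2.10 and 2.08), as it did with only the compared clusters in the fit (2.24, edgeR adjusted p = 0.0525), without PdgfraGFP 2 members were called, with the line as a replicate block 2, and without Acta2GFP there is no interstitial sum.

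Against pericytes, interstitial SMC had 1 member higher and none lower, where 0.124% of all genes were higher and 0.0644% lower. The gene was *Tpm2*, at 1536 against 356.3 and 425.8 (log2 fold change 1.99 ± 0.38, edgeR adjusted p = 0.0416). The single interstitial sum came from Acta2GFP and the pericyte sums from Cspg4dsRED and PdgfrbGFP, so line, plate and digestion cannot be told apart from class. The median of the members was 1.71, against -0.14 over all genes, and 19 members had an unadjusted p below 0.05 (8.05% of all genes). Without the Cspg4dsRED or PdgfrbGFP line the *Tpm2* call was lost (log2 fold change 1.98 and 1.94), as it was among cells below 200000 counts (2.17), with only the compared clusters in the fit (1.95), with limma on means per cell (2.88) and with the line as a replicate block (1.70), where *Acta2* (2.21, edgeR adjusted p = 0.0168) and *Asb2* (5.99, p = 0.0398) were called instead. Without PdgfraGFP 5 members were called.

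Transcription factors of the module differed in pattern. *Myocd* (myocardin, chr11:65176561-65269989, minus strand) was at 502 in interstitial SMC, at 260.95, 307.9 and 213.4 in vascular SMC and at 48.8 and 17.1 in pericytes. Among fibroblasts it appeared in cluster 1, at 54 in Acta2GFP, 16.9 in PdgfraGFP and 22.1 in PdgfrbGFP, and it was at 1.62 or less in each sum of the other 4 fibroblast clusters. In cluster 1, 54 cells (11.2%) were above 20, including 18 of 87 and 15 of 87 cells on the Acta2GFP plates and 3 of 24 and 1 of 41 on the PdgfraGFP plates. Those PdgfraGFP plates held 1 mural cell each. *Srf* was sparse, with a level of 29.2 in interstitial SMC, 11.5, 4.04 and 13.1 in vascular SMC, and 24.5 and 2.57 in pericytes, and no order can be read from it at this depth.

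Pericytes were next compared with the fibroblasts of clusters 1, 5 and 7, which asks which contractile genes mark a cell of the vessel wall. Of the 35 members, 18 were higher in pericytes and none lower by edgeR, where 4.02% of all genes were higher and 1.4% lower. The median log2 fold change was 2.05 for the members and -0.17 over all genes, and 25 members had an unadjusted p below 0.05 (16.8% of all genes). Those higher were the motor and its kinase (*Acta2*, *Myh11*, *Myl9*, *Mylk*), thin filament genes (*Tagln*, *Cald1*, *Tpm1*, *Tpm2*, *Lmod1*), *Des*, dense body and adhesion genes (*Synpo2*, *Flna*, *Vcl*, *Actn1*, *Pdlim3*), the phosphatase subunit *Ppp1r12a*, *Myocd* and *Mrvi1*, which encodes a substrate of cGMP-dependent kinase in calcium release.

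The called log2 fold changes ran from 1.35 ± 0.31 for *Flna* to 7.13 ± 0.96 for *Lmod1*. *Lmod1* was at 145.5 and 131.9 in pericytes and at 2.61 or less in every fibroblast sum (edgeR adjusted p = 8.4e-05). *Mrvi1* was at 267.8 and 94.6 in pericytes and at 10.5 or less in clusters 1, 5 and 7 (log2 fold change 6.0 ± 0.59, edgeR adjusted p = 1.97e-06). *Cald1* (caldesmon), at 755 and 836 against 161.8 to 251.9, had a smaller difference with little spread (1.63 ± 0.20, edgeR adjusted p = 2.79e-05). No sum of these 3 genes overlapped between the classes.

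Of the 18, 10 were called under each alternative tried, namely *Cald1*, *Lmod1*, *Mrvi1*, *Myh11*, *Myl9*, *Mylk*, *Pdlim3*, *Tagln*, *Tpm1* and *Tpm2*. Without Cspg4dsRED *Des* (log2 fold change 3.66), *Flna* (0.86), *Myocd* (3.14), *Ppp1r12a* (2.15) and *Vcl* (1.11) lost their call, and without PdgfrbGFP *Actn1* (2.66), *Ppp1r12a* (1.94) and *Synpo2* (2.92). With the line as a replicate block *Des* (3.60) and *Synpo2* (2.29) did. *Acta2*, *Flna*, *Myocd* and *Synpo2* lost their call with limma, and *Actn1*, *Myocd* and *Synpo2* among cells below 200000 counts. Over the alternatives the log2 fold change ran from 0.58 to 4.75 for *Myocd* and from 0.73 to 3.20 for *Synpo2*.

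Of the fibroblast clusters, cluster 6 gave the largest share of its counts to the 35 genes. Against clusters 1, 5 and 7, 14 members were higher and none lower by edgeR, where 2.52% of all genes were higher and 1.97% lower. The median log2 fold change was 1.08 for the members and -0.48 over all genes, and 21 members had an unadjusted p below 0.05 (17.5% of all genes). The 14 were *Acta2*, *Myl9*, *Mylk*, *Tagln*, *Cnn2*, *Cald1*, *Tpm1*, *Tpm2*, *Synpo2*, *Flna*, *Actn1*, *Pdlim3*, *Csrp1* and *Mrvi1*. Each of the 2 cluster 6 sums lay above all 10 sums of clusters 1, 5 and 7 for 14 members, namely the called ones without *Csrp1* and with *Vcl*, where 4.67% of all genes had this order.

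*Pdlim3* (chr8:45885461-45919548, plus strand), which encodes a PDZ and LIM protein that binds alpha-actinin, had the largest difference. It was at 722 in Acta2GFP and 393.7 in PdgfraGFP cells of cluster 6, at 79.996 to 148.2 in cluster 1 and at 14.7 or less in clusters 5 and 7. Its log2 fold change was 5.58 ± 0.64 with an edgeR adjusted p of 2.95e-05. Its level in cluster 6 was like that in vascular SMC (485.8, 508.8 and 474.5) and above that in pericytes (184.03 and 200). *Mylk* (log2 fold change 5.06 ± 0.46, edgeR adjusted p = 2.71e-06) and *Mrvi1* (5.08 ± 0.59, edgeR adjusted p = 3.07e-05) followed, with *Mrvi1* at 85.6 and 67.7 in cluster 6.

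*Acta2*, at 1344 and 473.5 against 11 to 257.9, had a log2 fold change of 3.58 ± 0.50 (edgeR adjusted p = 0.000267). Over 45 cells it ran from 0 to 3492 with a median of 651, and 24.4% reached the 10th percentile of vascular SMC. For *Myh11* that share was 0%, and for *Pdlim3* it was 71.1%. The heavy chain stood at 86.2 and 15.2 and *Des* at 4.65 and 0.405, below the 16.5 to 57.6 of *Des* in the sums of clusters 1, 5 and 7. *Des* was not called in the fit reported here. It was called lower with no filter on low counts, at least 3 cells per sum, plates as samples, only the compared clusters or DESeq2. The actin lines of cluster 6 thus overlapped those of pericytes, and its heavy chain lines did not.

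*Tpm2*, *Mylk*, *Pdlim3* and *Mrvi1* were called under each alternative tried. Without the Acta2GFP line, which leaves 1 cluster 6 sum, *Actn1*, *Cald1*, *Cnn2*, *Csrp1*, *Flna*, *Myl9*, *Synpo2*, *Tagln* and *Tpm1* lost their call. With the line as a replicate block *Myh11* was higher too (log2 fold change 4.02, edgeR adjusted p = 0.0125). *Cnn2* lost its call without PdgfraGFP (log2 fold change 0.94) and without PdgfrbGFP (1.41), *Actn1* without PdgfraGFP (2.56) and *Csrp1* without PdgfrbGFP (1.23). Among cells below 200000 counts, which also leaves 1 cluster 6 sum (11 PdgfraGFP cells), 5 of the 14 kept their call, 1 other member was lower, and *Acta2* (log2 fold change 1.68) and *Myl9* (1.10) were not called. DESeq2, which changes both the scaling and the model, moved the median of all genes by 0.37 on the log2 scale in this comparison. Library size without TMM moved it by 0.05.

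Compared with cluster 2, the apex fibroblasts, cluster 6 had 2 members higher and none lower, where 0.262% of all genes were higher and 0.695% lower. *Fhl1* (chrX:56731787-56793346, plus strand) was at 1537 and 725 in cluster 6 and at 118.3, 166.2 and 304.1 in Acta2GFP, PdgfraGFP and PdgfrbGFP cells of cluster 2 (log2 fold change 2.31 ± 0.38, edgeR adjusted p = 0.00427). *Pdlim3* was at 13.8, 10.02 and 64.6 in cluster 2 (log2 fold change 4.03 ± 0.94, edgeR adjusted p = 0.0445). The median was 0.16 for the members and -0.18 over all genes, and 10 members had an unadjusted p below 0.05 (14.5% of all genes). Without the Acta2GFP line neither was called (log2 fold change 1.30 and 3.17), without Cspg4dsRED *Pdlim3* was not (4.03), and with the line as a replicate block *Acta2* (2.07, edgeR adjusted p = 0.000596) and *Tagln* (5.97, p = 0.00457) were higher too and *Vcl* (-1.63, p = 0.0136) was lower. Among cells below 200000 counts, where 1 cluster 6 sum (11 PdgfraGFP cells) faces 1 cluster 2 sum (Acta2GFP), neither was called, and line and depth cannot be told apart there.

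Marker genes of the apex were highest in cluster 2, where their summed level (5 markers) was 3492 to 4321, and stood at 830 in both cluster 6 lines and at 565 to 660 in cluster 1. Of these, *Bmp7* (350.2 against 38.7), *Ptgs2* (46.1 against 21.6) and *Il1rl1* (1.79 against 0.824) were higher in cluster 6 than in cluster 1. *Tnc* (421.4 against 542.4) and *Foxl1* (10.6 against 11.3) were lower. *Mylk*, *Tpm1* and *Cald1* in cluster 2 were at 203.5 to 290.5, 446.98 to 624 and 429.5 to 443.5, beside 254.02 and 304.3, 385.4 and 507, and 424.7 and 503 in cluster 6. *Vcl* (vinculin) was at 266.6 to 392.1 in cluster 2 and at 162.2 and 188.1 in cluster 6.

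Against pericytes, cluster 6 had 2 members lower and none higher, where 0.685% of all genes were higher and 1.16% lower. *Des* was at 4.65 and 0.405 in cluster 6 (log2 fold change -8.23 ± 1.62, edgeR adjusted p = 0.0112), and *Myocd* at 0.8 and 0 (-6.95 ± 1.78, edgeR adjusted p = 0.0485). Pericytes stood at 553 to 845 for *Des*. The median of the members was -0.45, against -0.11 over all genes, and 12 members had an unadjusted p below 0.05 (15.9% of all genes). Without Acta2GFP neither was called (-11.63 for *Des* and -14.28 for *Myocd*), and *Myocd* was not called without Cspg4dsRED or PdgfrbGFP (-6.18 and -7.50), with only the compared clusters in the fit (-6.56), among cells below 200000 counts (-9.35) or with limma (-1.04). With the line as a replicate block *Lmod1* was lower as well (-6.82, edgeR adjusted p = 0.0296). No line holds both classes, since the cluster 6 sums came from Acta2GFP and PdgfraGFP and the pericyte sums from Cspg4dsRED and PdgfrbGFP, so line, plate and digestion cannot be told apart from class. The 7 pericyte markers summed to 311.7 and 387.3 in cluster 6, against 5963 and 7305 in pericytes and 79.1 to 382.7 in clusters 1, 5 and 7. Of these, *Higd1b* was at 0, *Notch3* at 0.249 and *Rgs5* at 3.01 in cluster 6, and *Kcnj8* (103.1) and *Abcc9* (101.4), which encode the subunits of a potassium channel of pericytes, were above the other fibroblasts. The 6 vascular SMC markers, 4 of them members, summed to 590.6 and 1776 in cluster 6, 2145 and 3617 in pericytes and 11.3 to 309.4 in clusters 1, 5 and 7.

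Vascular SMC against cluster 6 had 15 members higher and 2 lower, where 3.38% of all genes were higher and 3.27% lower. Higher were *Des*, *Lmod1*, *Cnn1*, *Myocd*, *Asb2*, *Susd5*, *Pgm5*, *Ppp1r12a*, *Ppp1r12b*, *Smtn*, *Flna*, *Myl6*, *Myl9*, *Tpm1* and *Tpm2*. The lower ones were *Fhl1* (301.2, 253.6 and 190.7 against 1537 and 725, log2 fold change -2.06 ± 0.38, edgeR adjusted p = 0.00243) and *Tpm4* (106.7, 182.3 and 160 against 535 and 366.8, -1.55 ± 0.28, edgeR adjusted p = 0.00206). *Susd5* and *Pgm5* had no count in the 36 cells of the cluster 6 sums, while *Susd5* was counted in 3 and *Pgm5* in 1 of the 9 cells of that cluster left out of the sums. Against the 3 counts that 0 allows over the 36 cells vascular SMC were at least 1318-fold higher for *Susd5* and at least 180.2-fold higher for *Pgm5*. The median was 1.66 for the members and 0.14 over all genes.

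*Des* was the only one of the 17 called under each alternative tried (log2 fold change 9.10 ± 1.66, edgeR adjusted p = 0.0021). Of the 17 calls, 9 were lost without Acta2GFP, 8 without PdgfrbGFP, 6 without PdgfraGFP and 2 without Cspg4dsRED. The size of the log2 fold change was at or above its value with all lines for 6, 4, 1 and 1 of these lost calls, and 8 and 9 members were called without Acta2GFP and PdgfrbGFP. With the line as a replicate block *Smtn* (edgeR adjusted p = 0.0699) and *Pgm5* (0.087) lost their call and *Acta2* (log2 fold change 1.14, p = 0.0135) and *Actg2* (5.18, p = 0.0469) gained one. *Acta2*, *Myh11*, *Tagln*, *Mylk* and *Pdlim3* were not called in the fit reported here, and of these the block called *Acta2* alone. Other settings called more members, 25 with limma and 20 with plates as samples or DESeq2 (8.7%, 10.5% and 16.3% of all genes).

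Interstitial SMC against cluster 6 had 6 members higher and none lower, where 0.35% of all genes were higher and 0.106% lower. They were *Myl9*, *Myocd*, *Ppp1r12b*, *Tpm1*, *Tpm2* and *Vcl*. The single interstitial sum came from Acta2GFP and has no spread of its own, so it is assumed to vary like the other sums. *Myocd* at 502 against 0.8 and 0 had the largest log2 fold change (10.56 ± 2.03, edgeR adjusted p = 0.027), and *Tpm1* at 1499 against 507 and 385.4 one of 1.69 ± 0.31 (edgeR adjusted p = 0.0166). *Fhl1* (1202) and *Pdlim3* (824) in interstitial SMC were of the same order as in cluster 6. The median was 1.97 for the members and 0.00 over all genes, and 20 members had an unadjusted p below 0.05 (10.5% of all genes). Of the 6 calls, 6 were lost without PdgfrbGFP, where no member was called, and 5 without PdgfraGFP. With the line as a replicate block *Myl9* lost its call (edgeR adjusted p = 0.0593), and *Acta2* (log2 fold change 1.77, p = 0.0165), *Lmod1* (8.15, p = 0.0193), *Myl6* (1.60, p = 0.0393) and *Asb2* (7.06, p = 0.042) gained one. Among cells below 200000 counts, with 1 sum in each class from different lines, 6 were lost and 4 other members were called.

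In the fibroblasts of clusters 1, 5 and 7 a few members were at mural levels or above. *Fhl1* was at 530 to 733, above pericytes and vascular SMC, *Tpm4* was at 228.9 to 433.8 and *Tagln2* at 342.2 to 562. These encode proteins of the general actin cytoskeleton or, for *Fhl1*, a LIM protein that is not restricted to muscle. *Ppp1r14a*, the inhibitor of myosin phosphatase, was at 133.9 in interstitial SMC, 95.2 to 167.6 in cluster 2, 61.5 to 103.7 in cluster 1 and 93.9, 31.5 and 96.4 in vascular SMC, so its levels in fibroblasts overlapped those in SMC.

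The median *Acta2* value over cells of clusters 1, 5 and 7 was 1.14 and 0.498 on the PdgfraGFP plates, which held 1 mural cell each, and 15.7 to 77.6 on the other 7 plates, which held 8 to 90. The means over these cells were 12.3 and 62 on the PdgfraGFP plates and 61 to 163.1 on the others, so they met. For *Des* the means were 32.9 and 30.3 against 32.3 to 69.8, and for *Pdlim3* 67.7 and 26.7 against 30.02 to 78.1. Over 6 plates and 755 fibroblasts, the rank correlation of a fibroblast's count with the counts of mural cells in wells of its own row or column averaged 0.505 for *Acta2*, 0.583 for *Myh11*, 0.567 for *Tagln* and 0.202 for *Pdlim3*. The part of neighbouring wells in the low fibroblast levels was not tested. The PdgfraGFP cells of cluster 6, on the plates with 1 mural cell each, had *Acta2* at 473.5, *Myl9* at 285.8 and *Pdlim3* at 393.7.

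Early-response genes that tissue dissociation can induce also differed, and their part in the results was not tested. The summed level of 6 of them was 4463 to 6528 in vascular SMC, 5175 in interstitial SMC, 1150 and 1165 in pericytes, 486 and 1032 in cluster 6, 6733 to 10071 in cluster 2, and 975 to 2439, 3089 to 4081 and 1897 to 2677 in clusters 1, 5 and 7.

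A further list of contractile, adhesion and regulatory genes, not members, was tested in the same fit (58 genes). In vascular SMC against pericytes 2 were higher and 3 lower (0.198% and 0.621% of all genes). The higher ones were *Ldb3*, a Z-band protein (138.2 against 2.37, log2 fold change 6.64 ± 1.5, edgeR adjusted p = 0.0379), and *Sorbs2* (823 against 14.6, 6.04 ± 1.20, edgeR adjusted p = 0.0171). The lower ones were *Pdlim1* (41.4 against 232.6, -2.61 ± 0.36, edgeR adjusted p = 0.000808), *Pdlim4* (10.7 against 30.9) and the non-muscle myosin heavy chain *Myh9* (32.8 against 243.5, -2.21 ± 0.45, edgeR adjusted p = 0.0205). The protein of *Myh9* forms the motor of non-muscle actin bundles.

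Interstitial SMC had *Pdlim4* (84.7 against 10.7) and *Fblim1* (474.3 against 30.1) higher than vascular SMC and none lower (0.879% and 0.129% of all genes), and *Pdlim1* lower than pericytes (26 against 232.6), where 0.0644% of all genes were lower. Pericytes had 14 higher and 3 lower than clusters 1, 5 and 7 (4.02% and 1.4% of all genes), among them *Prkg1*, the cGMP-dependent kinase of smooth muscle (log2 fold change 5.61 ± 1.24, edgeR adjusted p = 0.00844), *Mef2c* (5.26 ± 0.71, edgeR adjusted p = 9.31e-05) and *Fblim1* (3.03) above, and *Myh10* (-3.59), *Klf4* (-2.50) and *Pdlim4* (-1.86) below.

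Cluster 6 had 8 higher and 4 lower than clusters 1, 5 and 7 (2.52% and 1.97% of all genes). The caveolar gene *Cav1* was at 1072 in cluster 6, against 63, 100.6 and 134.6 in clusters 1, 5 and 7 (log2 fold change 3.35 ± 0.28, edgeR adjusted p = 1.03e-06). *Fblim1* (3.24) and *Fhl2* (2.77) were higher too, and *Csrp2* (-7.01), *Klf4* (-3.96) and *Zyx* (-1.88) were lower. Against cluster 2, *Lims2* was higher (98.1 against 2.58) and *Csrp2* and *Klf4* were lower (0.262% and 0.695% of all genes). Against pericytes, *Myh10* was higher (91.3 against 2.04) and *Csrp2* and *Mef2c* were lower (0.685% and 1.16% of all genes).

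Vascular SMC had 12 of the list higher and 10 lower than cluster 6 (3.38% and 3.27% of all genes), with *Ldb3* (11.56, from 1 count in cluster 6), *Csrp2* (8.08) and *Sorbs2* (6.62) the largest above and *Myh10* (-5.68), *Fhl2* (-4.20) and *Flnc* (-3.24) the largest below. Interstitial SMC had *Csrp2* higher (6.85) and *Pdlim1* lower (-3.33) than cluster 6 (0.35% and 0.106% of all genes).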

How the data were processed

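Raw counts of single colon cells were used, all from 1 table of 46609 rows. Per the study's methods the authors trimmed SmartSeq2 reads, mapped them to GRCm38 with TopHat2 (Bowtie in the submitters' processing notes), removed what the methods call doublets with samtools and ran featureCounts, and the deposited values are whole-number counts per gene. No doublet caller was run here. Strand use is not stated, so the counts of the 17 members overlapped by another gene are uncertain. The 92 ERCC spike-in rows (1.36% of counts) were left out.

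For each cluster and reporter line with at least 10 cells, counts were added up (21 sums). After filterByExpr and TMM scaling, all sums entered 1 quasi-likelihood fit of edgeR 4.0.16, with p-values adjusted after Benjamini and Hochberg and a threshold of 0.05. Each SE is the ratio of a log2 fold change to the root of its F statistic. Within-line ratios used a pseudocount of 1. DESeq2 1.42.0 and limma 3.58.1 were alternatives, in R 4.3.3, with Python 3.11.15 for levels.

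Members described in full were 18 fixed by name and those called, and of other genes those called with the largest fold changes, at most 3 in each direction. The members and lists were chosen with earlier results of these data known. Sums of 1 line share strain and plates, and their deviations from the cluster means correlated at r = 0.0185 to 0.178 between clusters, above 0.1 in each shared line for vascular SMC and pericytes (0.178 and 0.167), vascular SMC and cluster 5 (0.108 to 0.137) and pericytes and cluster 5 (0.122 and 0.131), and below 0.1 for the other pairs. The pairing comes from the shared line in the labels.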

Additional observations from a re-analysis of the deposited data

Results flagged for a closer look

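Chance flags about 1 in 20 groups of this size. The level of *Tagln2* in cluster 5 was 549 in Cspg4dsRED, against 342.2, 352.9 and 376.5 in the other lines. The level of *Susd5* in cluster 5 was 0.548 in Cspg4dsRED, against 0, 0.0613 and 0.0902. Cluster 5 of that line held 13 cells.

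For 3 members the difference between vascular SMC and pericytes had opposite signs in the Cspg4dsRED and PdgfrbGFP lines, as log2 ratios of levels plus 1, and the difference between the lines was not tested. They were *Cald1* (-0.38 and 0.05), *Srf* (-2.34 and 1.98) and *Mrvi1* (-0.14 and 0.68). None of them was called in that comparison.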

How the results depend on the processing

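No called member reversed its direction under any alternative run, and 2 to 46 uncalled values changed sign by setting (of up to 250 that could be fitted), none of them called. Counts of called members moved by over 1.5 times as follows, and the cause was not tested. For vascular SMC against pericytes (4) they were 7 with no filter on low counts, 7 with the line as a replicate block, 13 with plates as samples, 16 with limma on means per cell, 12 with DESeq2 and 0 to 10 with a line left out. For interstitial against vascular SMC (1) they were 2 with no filter, the block, at least 3 cells per sum, plates or DESeq2, 3 with only the compared clusters in the fit, 8 with limma and 0 to 2 with a line left out. For interstitial SMC against pericytes (1) they were 2 with no filter, the block, at least 3 cells or cells below 200000 counts, 8 with plates or only the compared clusters, 12 with limma, 5 with DESeq2 and 0 to 5 with a line left out. For cluster 6 against clusters 1, 5 and 7 (14) they were 6 in cells below 200000 counts, 7 with limma and 5 to 14 with a line left out. For cluster 6 against cluster 2 (2) they were 5 with the block, 4 with plates or DESeq2, 0 in cells below 200000 counts or with only the compared clusters, and 0 to 3 with a line left out. For cluster 6 against pericytes (2) they were 5 with plates or limma, 4 with DESeq2, 1 in cells below 200000 counts or with only the compared clusters, and 0 to 3 with a line left out. For vascular SMC against cluster 6 (17) they were 11 with only the compared clusters and 8 to 16 with a line left out. For interstitial SMC against cluster 6 (6) they were 10 with no filter or at least 3 cells, 16 with plates, 14 with only the compared clusters, 13 with limma or DESeq2 and 0 to 7 with a line left out. With DESeq2 4 of 35 members (11.4%) compare with 10.7% of all genes for cluster 6 against pericytes and with 8.95% against cluster 2, and 2 (5.71%) with 5.12% for interstitial against vascular SMC (3.84% with plates), all near the share of all genes. The share of all genes called over the 9 comparisons was 0.189% to 6.65% as reported, 3.83% to 16.3% with DESeq2, 2.32% to 8.7% with limma and 1.14% to 10.5% with plates. It was 0.207% to 5.68% with the block and 0.198% to 4.65% with no filter. With at least 3 cells per sum it was 0.635% to 9.51%, and with only the compared clusters 0.778% to 7.24%. The block removed 6 of the 65 calls and added those given above. For cluster 6 against pericytes limma called 2 members higher and 3 lower, and DESeq2 1 higher and 3 lower. Of the counts above, those for interstitial against vascular SMC include 1 lower member under each setting with 2 called, 2 with only the compared clusters and 4 with limma, and plates gave 2 lower for vascular SMC against pericytes. The limit of 200000 counts was chosen after seeing the data and leaves 1 sum each of clusters 6 and 2. DESeq2, which changes scaling and model, moved the median of all genes by 0.37 and 0.18 (cluster 6 against clusters 1, 5 and 7 and against cluster 2). It moved the median by 0.16 for pericytes against clusters 1, 5 and 7 and by -0.14 for vascular SMC against cluster 6. Library size scaling moved it by -0.15 for interstitial SMC against pericytes. Of 48 levels, 24 moved by over 1 SD with the median over cells, 12 with lines of at least 3 cells and 6 with summed counts. Without Acta2GFP, interstitial SMC gave no value.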
